A study of Homo sapiens with 6 samples.

Results

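SR proteins and hnRNPs are the abundant RNA-binding proteins that set which exons a cell keeps. The members described here were 33 genes chosen by symbol from the 60675 gene IDs of the deposited table: 11 SRSF genes, the SR-like genes TRA2A, TRA2B and RBM39, 16 HNRNP genes and the polypyrimidine tract-binding genes PTBP1, PTBP2 and PTBP3. Each symbol matched 1 gene ID. Expression was measured by RNA-seq of total RNA from HCT116 cells, a human colon cancer line in long use. The cells stably expressed either wild-type PHF5A (WT, 3 libraries) or PHF5A K29Q (3 libraries), a form with glutamine in place of a lysine, and PHF5A is a small subunit of the SF3B complex that binds the intron branch site. The labels name no vector, clone or culture and do not say that the cells' own PHF5A gene was removed. Nothing says that replicate libraries are independent cultures, so a p-value here reflects how far these libraries spread, and that spread may be technical. The series title links PHF5A acetylation to alternative splicing. The comparison here asks whether the genes that regulate splicing were themselves expressed at other levels in K29Q cells.

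SR proteins carry RNA recognition motifs and a tail rich in arginine and serine, bind mostly to exonic enhancers and help U1 and U2 snRNPs to find nearby splice sites. The hnRNPs coat nascent transcripts, and several of them, among them HNRNPA1 and PTBP1, are best known for keeping exons out. Many genes of both families limit their own output: the protein promotes splicing of its transcript into a form with an early stop codon, which nonsense-mediated decay then removes. Gene-level values add the productive and the decaying forms together, as far as the latter survive.

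The sequences of these control exons are shown because they mark what a gene-level value cannot separate. GENCODE 29 on GRCh38 listed at least 1 decay transcript for 26 of the 33 members (78.8%) and for all 11 SRSF genes. Among the 11224 protein-coding genes tested it listed one for 43.5%, but the members also had more annotated transcripts, with a median of 11 against 8. In 5 SRSF genes a decay transcript held an internal exon that overlapped no exon of any coding transcript and that contained the stop codon. The end of the reading frame in the longest such exon is given below for 4 of them, 5′ to 3′ on the gene's strand, with the stop codon in capitals. The exon of SRSF3 was 456 nt long (bases at chr6:36599825-36599854), that of SRSF4 195 nt (chr1:29160018-29160047), that of SRSF6 268 nt (chr20:43459275-43459304) and that of SRSF7 449 nt (chr2:38749319-38749346).
SRSF3: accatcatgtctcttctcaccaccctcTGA
SRSF4: gctaagatgactgcctgttccatttgcTGA
SRSF6: gccatgacgacagcagccttttgccatTAG
SRSF7: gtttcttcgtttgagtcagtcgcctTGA

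In PTBP1 and PTBP2 such control is known to act on a coding exon of 34 nt, whose loss shifts the reading frame, and PTBP3 has a similar exon. PTBP1 protein is known to keep this exon out of PTBP2 transcripts in cells other than neurons, and out of its own. The exon lies at chr19:807869-807902 in PTBP1, chr1:96806419-96806452 in PTBP2 and chr9:112231380-112231413 in PTBP3 (minus strand). Capitals mark the bases that differ from PTBP1: the PTBP2 exon matched it at 25 of 34 bases (73.5%) and the PTBP3 exon at 22 of 34 (64.7%). GENCODE 29 listed 5 transcripts of PTBP1 that skip the exon, 2 of them decay transcripts, 3 of PTBP2, 0 of them decay transcripts, and 0 of PTBP3.
PTBP1: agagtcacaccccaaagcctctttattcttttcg
PTBP2: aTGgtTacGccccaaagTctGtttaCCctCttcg
PTBP3: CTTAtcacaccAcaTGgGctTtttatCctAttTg

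Levels are given as FPKM, which divides fragments by gene length and library size, so that levels can be compared between genes. The deposited values move in steps from which a depth of 33800000 to 40100000 fragments per library was estimated, if 1 step is 1 fragment. PHF5A itself, native and introduced copies together, had 32.4, 34.4 and 32.7 FPKM in WT 1 to 3 and 41.4, 45.9 and 45.0 FPKM in K29Q 1 to 3, a gene-level value that does not show which form was expressed. Among 11 markers of colon epithelium, 6 had an FPKM of at least 1 in all 6 libraries, among them EPCAM, KRT8 and CDH1, while CDX1, VIL1, CEACAM5, LGALS4 and KRT20 stayed under 1. Of 10 leukocyte genes 9 stayed under 1 in all libraries, with PTPRC near 0, and of 10 fibroblast and endothelial genes 8 did. The summed level of the epithelial list ran from 1248 to 1400.4 FPKM in WT and from 1147 to 1201 FPKM in K29Q, without overlap. Most of that sum came from KRT8, KRT18 and KRT19. These 3 keratins and CDH1 were lower in all K29Q than in all WT libraries, as were 9.0% of all genes tested, while EPCAM and CDX2 overlapped. The leukocyte list summed to 2.59 to 3.24 FPKM in WT and 2.72 to 3.20 FPKM in K29Q. The fibroblast and endothelial list summed to 6.36 to 7.11 and 6.43 to 7.73 FPKM. The part of these cell type markers in the results was not tested. On the first principal component of all genes (34.1% of the variance) WT 1, at −4.72, lay beside the K29Q libraries (−4.76 to −14.9) and apart from WT 2 and WT 3 (13.2 and 18.0). The column headers carry a code that K29Q 1, K29Q 2 and WT 2 share (set A) and another that K29Q 3, WT 1 and WT 3 share (set B). The codes look like flow cell names, but no label says what they are.

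All 33 members were detected, and 32 passed the filter on low values (3 or more libraries with FPKM 1 or higher). Their mean FPKM over the 6 libraries spanned 17.5-fold, from 8.0 for SRSF8 to 139.8 for HNRNPA1. PTBP2 was the exception, at a mean of 0.721 FPKM and under 1 in every library. Together the 33 genes made up 0.556% of all FPKM in WT (SD 0.00729, n = 3) and 0.566% in K29Q (SD 0.0161, n = 3). The 16 HNRNP genes summed to 961 ± 4.31 FPKM in WT and 969 ± 36.0 FPKM in K29Q, and the 11 SRSF genes to 320.3 ± 10.8 and 325 ± 7.47 FPKM. The ratio of the HNRNP to the SRSF sum was 3.00 ± 0.107 in WT and 2.98 ± 0.0434 in K29Q, and the ranges of both sums and of their ratio overlapped between the groups. In bulk RNA, fewer cells that express a gene and less of its RNA per cell cannot be told apart.

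**Figure D1:**
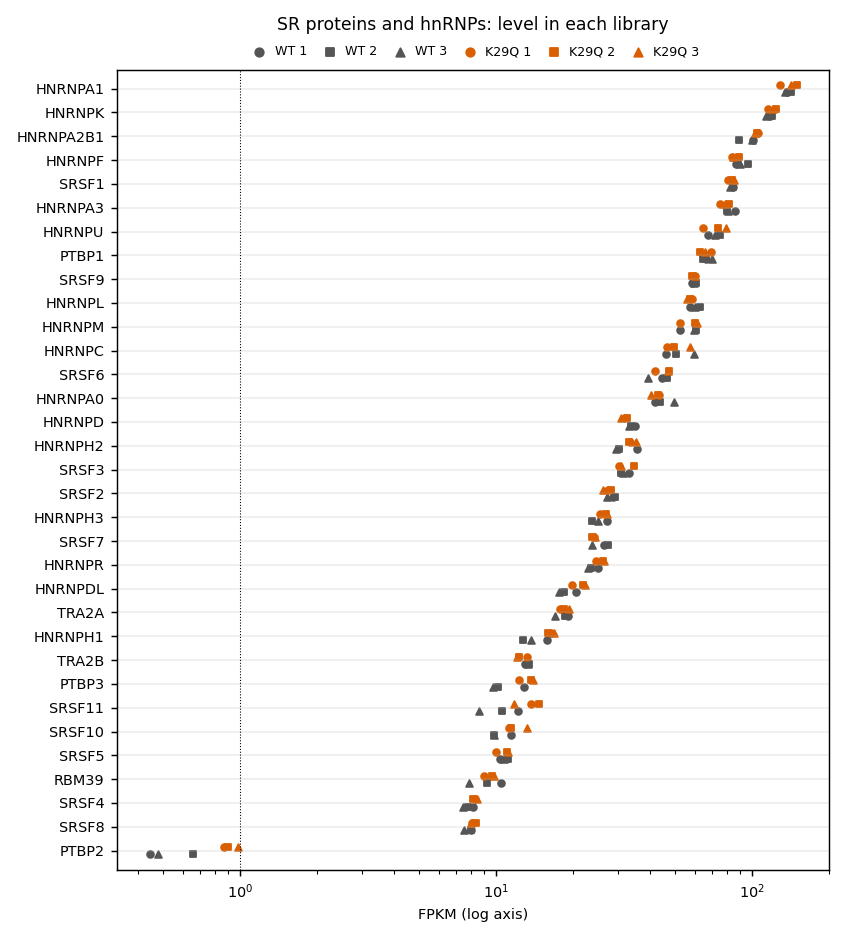
FPKM of each of the 33 members (log axis) in each of the 6 libraries, ordered by mean level; grey symbols are WT and orange symbols K29Q, and the dotted line is an FPKM of 1. The members run from PTBP2, under 1 in every library, to HNRNPA1 at a mean of 139.8, and for most genes the grey and orange symbols interleave.

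No member passed the threshold of an adjusted p of 0.05 between K29Q and WT (limma on log2(FPKM + 1), Benjamini-Hochberg over the 13261 genes tested). Of the 32 tested members 0 passed, against 0.0528% of all genes, and the smallest adjusted p was 0.39, for SRSF11. At an unadjusted p under 0.05 there were 3 members, SRSF11, HNRNPH1 and PTBP3, all higher in K29Q. That is 9.38% of the members, against 12.5% of all genes tested, and for the higher direction alone 9.38% against 7.65%. The lower direction had 0 members, against 4.89% of all genes. All 3 K29Q libraries lay outside the WT range for 4 of 32 members (12.5%), against 17.8% of all genes. SRSF4, HNRNPA2B1 and HNRNPH1 lay above it (3 members, against 8.8% of all genes), and HNRNPD lay below it (1 member, against 9.0%).

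The members' fold changes were small and went both ways. Of the 32, 20 were higher in K29Q and 12 lower. Their median log2 fold change was 0.02, and that over all genes tested was 0.003. In absolute size the median was 0.07 for the members and 0.09 for all genes, and 25 of the 32 members were under 0.1. The unadjusted 95% confidence interval stayed within 0.5 of 0 on the log2 scale for 30 members, and it reached past that for SRSF11 (0.02 to 0.64) and PTBP3 (0.01 to 0.53).

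**Figure D2:**
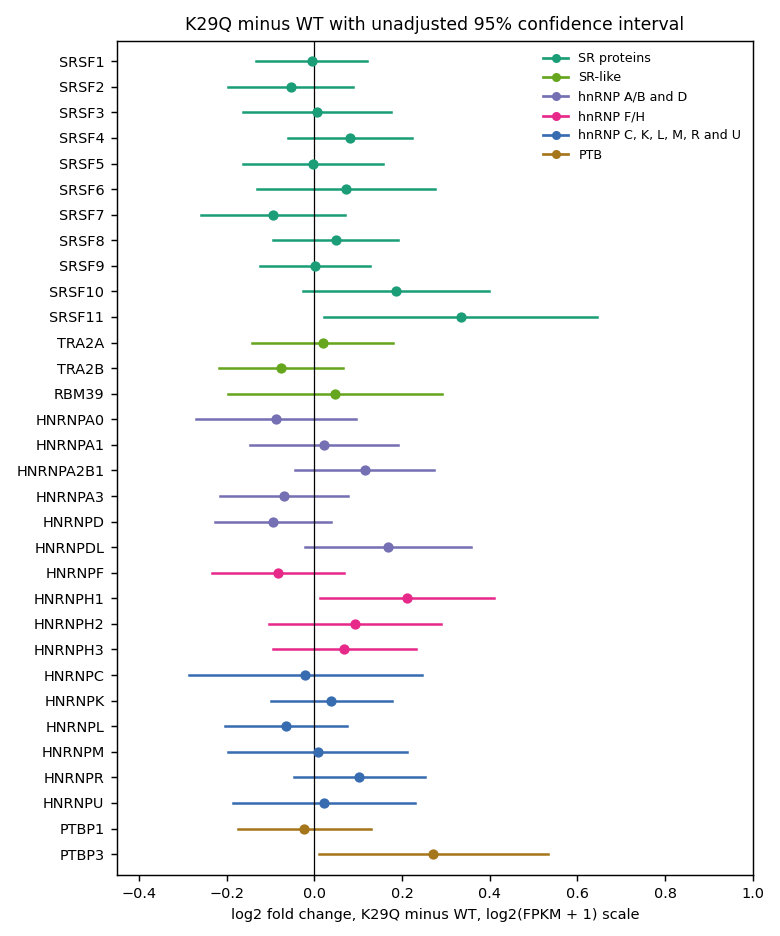
Log2 fold change of K29Q minus WT (point, log2(FPKM + 1) scale) with its unadjusted 95% confidence interval (line) for the 32 tested members, coloured by family. The intervals of SRSF11, HNRNPH1 and PTBP3 lie above 0 and those of the other 29 include 0.

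Among the SR proteins, the widely expressed SRSF1, a general splicing activator, had 84.6, 84.3 and 82.6 FPKM in WT 1 to 3 and 80.8, 84.0 and 85.7 FPKM in K29Q 1 to 3. The groups overlapped, and the log2 fold change was −0.01 with a 95% confidence interval from −0.13 to 0.12. SRSF9, a short relative of SRSF1, had 59.6 ± 1.27 and 59.6 ± 1.02 FPKM (WT then K29Q, SD, n = 3 each, here and in the pairs that follow). SRSF3, the smallest classical SR protein, had 31.8 ± 1.16 and 31.9 ± 2.39 FPKM, and SRSF5 10.8 ± 0.385 and 10.8 ± 0.674 FPKM. SRSF6 had 43.5 ± 3.77 FPKM in WT and 45.7 ± 3.12 in K29Q. SRSF4, its close relative, had 7.79 ± 0.345 and 8.30 ± 0.138 FPKM and did not overlap between the groups, at a log2 fold change of 0.08 (limma, adjusted p = 0.59), which was −0.05 after the GC and length correction described below. SRSF7, which also takes part in mRNA export, had 25.9 ± 1.89 and 24.1 ± 0.381 FPKM, a log2 fold change of −0.09 (limma, adjusted p = 0.585).

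SRSF2, a nuclear SR protein, and SRSF8, which arose from it as a retrocopy, were read side by side. SRSF2 had 28.9, 29.3 and 27.3 FPKM in WT 1 to 3 and 27.6, 28.2 and 26.3 FPKM in K29Q 1 to 3. SRSF8 had 8.03, 8.03 and 7.51 FPKM in WT and 8.04, 8.40 and 8.02 FPKM in K29Q. Both genes overlapped between the groups, with log2 fold changes of −0.05 (95% confidence interval −0.20 to 0.09) and 0.05 (−0.09 to 0.19). Their ratio, SRSF2 over SRSF8, ran from 3.59 to 3.65 in WT and from 3.28 to 3.43 in K29Q and so did not overlap, a pattern chosen after its values were seen and not tested. Reads that fit both copies may be divided between them, and SRSF2 also overlaps MFSD11 on the opposite strand over 1510 bases.

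SRSF11 and SRSF10 had the highest ratios among the SRSF genes. SRSF11 (chromosome 1, 70205682 to 70253052, plus strand), an atypical SR protein that lies close to 3′ splice sites, had 12.2, 10.6 and 8.63 FPKM in WT 1 to 3 and 13.7, 14.7 and 11.8 FPKM in K29Q 1 to 3. WT 1 lay above K29Q 3, so the groups overlapped. The ratio of the means was 1.28 and the log2 fold change 0.33 (SE 0.131, limma, adjusted p = 0.39). It was 0.39 within set A and 0.18 within set B. SRSF10 (chromosome 1, 23964804 to 23980927, minus strand), an SR protein that represses splicing when it loses its phosphates, had 11.5, 9.88 and 9.86 FPKM in WT and 11.3, 11.4 and 13.2 FPKM in K29Q. WT 1 lay above 2 of the 3 K29Q libraries here. The ratio was 1.15 and the log2 fold change 0.19 (SE 0.0899, limma, adjusted p = 0.44). It was 0.18 and 0.29 within sets A and B.

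All 3 SR-like members overlapped between the groups. TRA2A and TRA2B, paralogs that bind purine-rich exonic enhancers, were present at similar levels. TRA2A had 19.2, 18.6 and 17.1 FPKM in WT 1 to 3 and 17.8, 18.5 and 19.4 FPKM in K29Q 1 to 3. TRA2B had 13.0, 13.4 and 13.3 FPKM in WT and 13.2, 12.3 and 12.1 FPKM in K29Q. The log2 fold changes were 0.02 (95% confidence interval −0.14 to 0.18) and −0.08 (−0.22 to 0.07). RBM39, a U2AF-related protein that works with the 3′ splice site machinery, had 9.20 ± 1.35 and 9.49 ± 0.439 FPKM (SD, n = 3 each).

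The hnRNP A/B and D proteins carry a pair of RNA recognition motifs. HNRNPA1, a repressor that spreads along exons, was the most abundant member and had 138, 143 and 135 FPKM in WT 1 to 3 and 129, 151 and 143 FPKM in K29Q 1 to 3. The groups overlapped, with a log2 fold change of 0.02 (95% confidence interval −0.15 to 0.19). GENCODE 29 lists 74 pseudogenes named after HNRNPA1, whose FPKM summed to between 17.9 and 25.6 per library, so the level of HNRNPA1 depends on how reads were divided among the copies. HNRNPA2B1, known for binding RNA that carries m6A and for sorting RNA into vesicles, had 102, 89.2 and 100.1 FPKM in WT and 106, 105 and 104 FPKM in K29Q. Every K29Q value exceeded every WT value, by little for WT 1. The log2 fold change was 0.11 (SE 0.0671, limma, adjusted p = 0.509). Within set A it was 0.24 and within set B 0.04, and after the GC and length correction it was −0.02. HNRNPA2B1 overlaps CBX3 on the opposite strand over 368 bases, and CBX3 had 44.8 to 55.4 FPKM in WT and 55.1 to 59.0 FPKM in K29Q. HNRNPA3 had 82.3 ± 3.53 and 78.4 ± 3.28 FPKM, and HNRNPA0 45.3 ± 3.99 and 42.5 ± 1.61 FPKM (SD, n = 3 each).

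HNRNPD and HNRNPDL lie near each other on chromosome 4, and neither passed the threshold. HNRNPD, also called AUF1, which speeds the decay of mRNAs with AU-rich elements (chromosome 4, 82352498 to 82374503, minus strand), had 34.9, 33.9 and 33.3 FPKM in WT 1 to 3 and 32, 32.6 and 30.8 FPKM in K29Q 1 to 3. It was the member whose K29Q libraries all lay below the WT libraries. The ratio was 0.934 and the log2 fold change −0.10 (SE 0.0559, limma, adjusted p = 0.51). It was −0.07 and −0.14 within sets A and B. HNRNPDL, a paralog of HNRNPD that controls its own level by splicing (chromosome 4, 82422564 to 82430408, minus strand), had 20.6, 18.5 and 17.7 FPKM in WT and 19.8, 22 and 22.3 FPKM in K29Q. WT 1 lay above K29Q 1, so the groups overlapped. The ratio was 1.13 and the log2 fold change 0.17 (SE 0.0797, limma, adjusted p = 0.435), and 0.17 and 0.21 within sets A and B.

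The hnRNP F/H proteins bind runs of G. HNRNPF had 87.1, 96.5 and 89.8 FPKM in WT 1 to 3 and 83.6, 89.4 and 84.8 FPKM in K29Q 1 to 3, with overlap and a log2 fold change of −0.08. HNRNPH1 (chromosome 5, 179614178 to 179634784, minus strand) had 15.8, 12.8 and 13.7 FPKM in WT and 16.4, 16 and 16.9 FPKM in K29Q. The groups did not overlap, and WT 1 lay just below the K29Q range. The ratio was 1.16 and the log2 fold change 0.21 (SE 0.0842, limma, adjusted p = 0.392). Within sets A and B it was 0.32 and 0.19.

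HNRNPH2, the X-linked copy of HNRNPH1, had 35.6, 30.2 and 29.6 FPKM in WT 1 to 3 and 33.4, 33.1 and 35.2 FPKM in K29Q 1 to 3. HNRNPH3, a shorter relative, had 27.2, 23.8 and 25.1 FPKM in WT and 25.6, 27.0 and 27.3 FPKM in K29Q. WT 1 was the highest WT library for both and lay within or above the K29Q range for each. The ratio of HNRNPH2 to HNRNPH1 was 2.26 ± 0.102 in WT and 2.06 ± 0.0260 in K29Q, and did not overlap between the groups. It was chosen after its values were seen and not tested. A read-through model, RPL36A-HNRNPH2, covers HNRNPH2 on the same strand and ran from 4.03 to 19.7 FPKM in WT and from 9.39 to 10.6 FPKM in K29Q, so part of the HNRNPH2 reads may be counted there.

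All 6 of the remaining hnRNPs overlapped between the groups. HNRNPK, a KH-domain protein that binds runs of C, had 118, 121 and 114 FPKM in WT 1 to 3 and 116, 125 and 122 FPKM in K29Q 1 to 3, a log2 fold change of 0.04 with a 95% confidence interval from −0.10 to 0.18. HNRNPR, a relative of SYNCRIP, had 25.2, 23.6 and 23.0 FPKM in WT and 24.7, 26.2 and 26.5 FPKM in K29Q. The HNRNPR groups overlapped through WT 1 and K29Q 1, at a log2 fold change of 0.10 (limma, adjusted p = 0.526), which was −0.10 after the GC and length correction. HNRNPC, which binds runs of U and packs nascent RNA, had 52.1 ± 6.64 and 51.3 ± 5.45 FPKM, with an SE of the log2 fold change of 0.113, the highest of these 6. HNRNPL, a binder of CA repeats, had 60.0 ± 2.56 and 57.3 ± 1.4 FPKM, HNRNPM, a binder of GU-rich sites, 57.7 ± 4.34 and 58.0 ± 4.75 FPKM, and HNRNPU, a scaffold of the nuclear matrix, 71.5 ± 3.89 and 72.7 ± 7.32 FPKM (SD, n = 3 each).

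The 3 PTB genes spanned a wider range of levels than any other family here. PTBP1 had 66.4, 64.6 and 70.2 FPKM in WT 1 to 3 and 69.3, 62.7 and 66 FPKM in K29Q 1 to 3, with overlap and a log2 fold change of −0.02 (95% confidence interval −0.18 to 0.13). PTBP3 (chromosome 9, 112217716 to 112333667, minus strand), a PTB paralog found mostly in blood cells and at lower levels elsewhere, had 13.0, 10.2 and 9.72 FPKM in WT and 12.4, 13.7 and 14 FPKM in K29Q. WT 1 lay above K29Q 1, so the groups overlapped. The ratio was 1.22 and the log2 fold change 0.27 (SE 0.11, limma, adjusted p = 0.392). Within sets A and B it was 0.32 and 0.29.

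PTBP2, the neuronal PTB protein (chromosome 1, 96721665 to 96823738, plus strand), had 0.444, 0.657 and 0.477 FPKM in WT 1 to 3 and 0.871, 0.898 and 0.980 FPKM in K29Q 1 to 3. The K29Q libraries all lay above the WT libraries, WT 1 included, and the ratio of the means was 1.74. It was below the filter and so was not among the tested members. With no filter on low values its log2 fold change was 0.33 (SE 0.0845, limma, adjusted p = 0.559, unadjusted p = 0.00821). It was 0.19 within set A and 0.44 within set B, and it did not pass the threshold. With a minimum of 0.5 FPKM and the correction for GC content and length described next, chosen after seeing the data, it was 0.12 (95% confidence interval −0.18 to 0.41). The ratio of PTBP1 to PTBP2 ran from 98.3 to 149.6 in WT and from 67.3 to 79.5 in K29Q. That of PTBP1 to PTBP3 ran from 5.13 to 7.22 in WT and from 4.56 to 5.60 in K29Q and overlapped. Both ratios were chosen after their values were seen and not tested. Whether the 34 nt exon shown above was kept or skipped in these transcripts cannot be read from gene-level values.

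**Figure D3:**
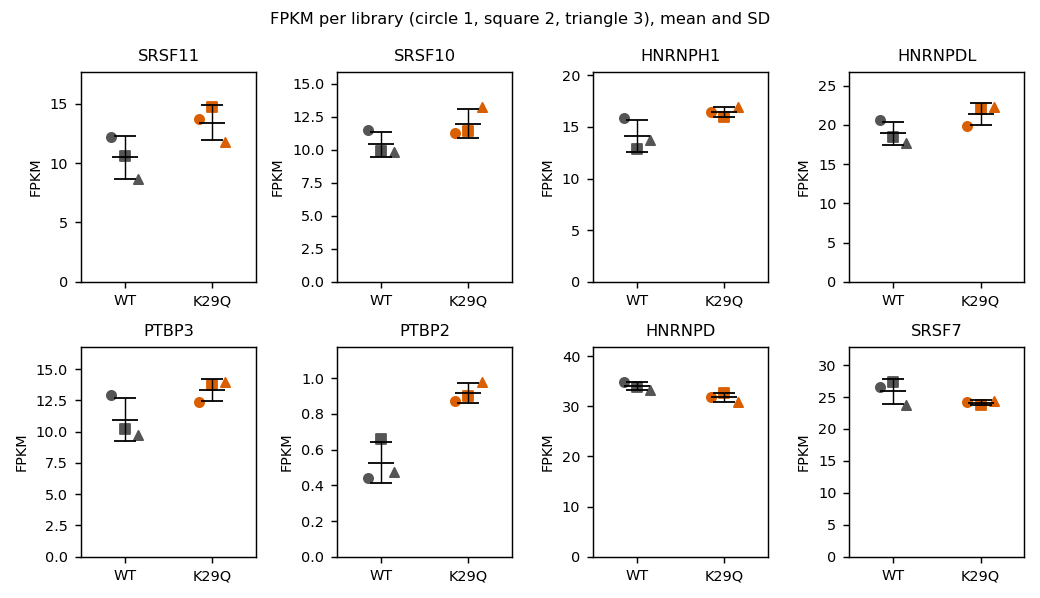
FPKM (axis from 0) of 8 members in the 3 WT (grey) and 3 K29Q (orange) libraries, with mean and SD; circles, squares and triangles are libraries 1, 2 and 3. PTBP2, HNRNPH1 and HNRNPD do not overlap between the groups, and the WT 1 circle lies within the K29Q range for SRSF11, SRSF10, HNRNPDL and PTBP3.

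**Figure D4:**
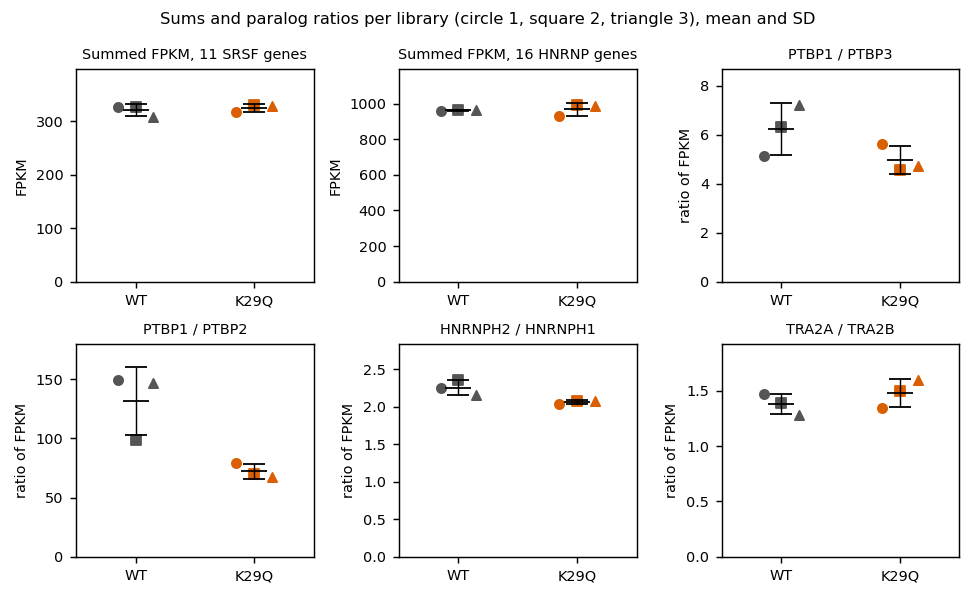
Summed FPKM of the 11 SRSF and 16 HNRNP genes and 4 ratios between paralogs in each library (axes from 0, mean and SD, symbols 1 to 3 as circle, square and triangle). The sums overlap between WT (grey) and K29Q (orange), and the ratios of PTBP1 to PTBP2 and of HNRNPH2 to HNRNPH1 do not.

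The members with the highest ratios had transcripts of low GC content. GC content of the longest transcript was 36.6% for SRSF11 and PTBP3, 36.3% for HNRNPH1, 39.8% for SRSF10 and 34.7% for PTBP2, and the median of the tested members was 41.1% against 49.7% for all genes tested. Low GC content did not always go with a high ratio: HNRNPD, at 36.1%, had a ratio of 0.934 and HNRNPA3, at 37.3%, of 0.952. HNRNPDL, with a ratio of 1.13, was at 44.6%. Over the 13108 genes with a value, log2 fold changes went with GC content at a Pearson correlation of −0.364, and over the 32 members at −0.323. The Spearman correlations were −0.425 and −0.254, so by rank the relation was weaker in the members. Both are descriptions across genes that share the same 6 libraries. The 12 tested members with a GC content of up to 40% had a median log2 fold change of 0.09, with 9 above 0. That median was below the 0.15 of the 1873 genes in that range. WT 1 was the highest WT library for 9 of these 12 and for 17 of all 32 tested members. No such count over all genes is given here, so these counts are not a result about the members. Over all genes tested with a GC value, each library's deviation from the mean had a slope with GC content. Per 10% GC it was −0.041, 0.030 and 0.118 on the log2 scale in WT 1 to 3, and 0.018, −0.056 and −0.069 in K29Q 1 to 3. The median of these 12 members relative to the WT mean, on the log2 scale, was 0.07 in WT 1, −0.04 in WT 2 and −0.03 in WT 3, and 0.00, 0.12 and 0.14 in K29Q 1 to 3.

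A correction then removed from every library its own trend with GC content and transcript length, and the members shifted downwards. The slopes with GC content went partly with group. Any K29Q difference that follows GC content or length would therefore be removed too, and whether this occurred was not tested. The median became −0.05, with 9 members above 0 and 23 below, beside a median of −0.0047 over all genes. SRSF11 then had a log2 fold change of 0.18, PTBP3 of 0.08, SRSF10 of 0.08 and HNRNPH1 of 0.04. The members at an unadjusted p under 0.05 were other ones: HNRNPDL at 0.13 above 0, and HNRNPD at −0.26, HNRNPA3 at −0.23 and SRSF7 at −0.17 below 0. HNRNPA0 went from −0.09 to −0.22 and TRA2B from −0.08 to −0.18 (limma, adjusted p = 0.4 and 0.336), and with a term for the header codes added to the correction TRA2B was at −0.22 (unadjusted p = 0.0358, limma, adjusted p = 0.298). With the correction alone, 1 member was higher and 3 were lower of 32 at an unadjusted p under 0.05. The shares of all genes were 7.28% and 7.93% (15.2% in both directions). Of the 32 members 0 passed the adjusted threshold (smallest limma adjusted p = 0.18, HNRNPA3), which 0.633% of all genes did. HNRNPD, HNRNPA3, SRSF7 and HNRNPDL kept their direction in all 18 alternatives run. So did SRSF11, PTBP3, SRSF10 and HNRNPH1, and the members that did so were 15 of the 32.

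**Figure D5:**
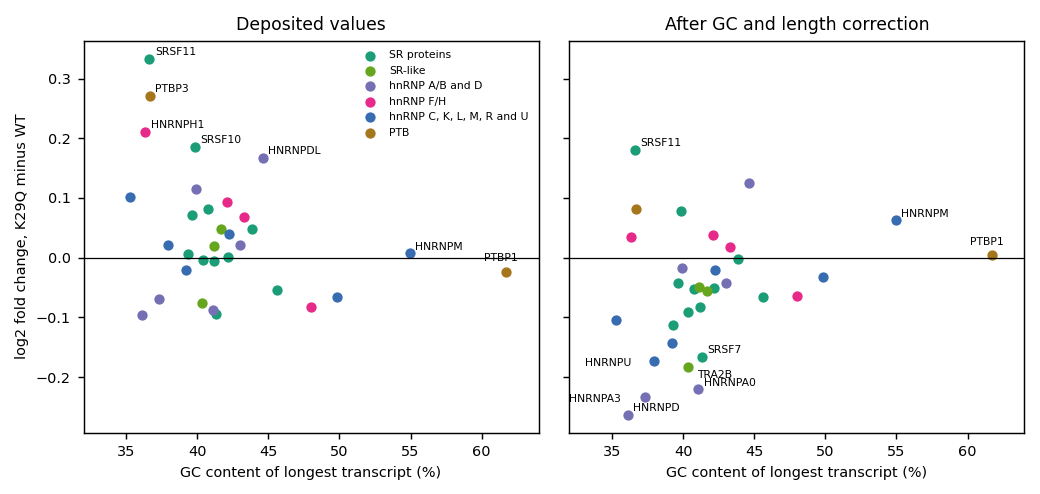
Log2 fold change of K29Q minus WT against the GC content of the longest transcript for the 32 tested members, before (left) and after (right) the GC and length correction; colours mark families. SRSF11, PTBP3 and HNRNPH1, at 0.33, 0.27 and 0.21 on the left, lie at 0.18, 0.08 and 0.04 on the right, and HNRNPD moves from −0.10 to −0.26.

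Leaving out WT 1 raised the number of members at an unadjusted p under 0.05 to 6, all higher in K29Q, while the share of all genes higher at that p went from 7.65% to 14.4%, of all genes lower from 4.89% to 6.07% and of both from 12.5% to 20.5%. They were SRSF11 (log2 fold change 0.44, limma, adjusted p = 0.132), PTBP3 (0.39, adjusted p = 0.0746), HNRNPH1 (0.29, adjusted p = 0.0886), SRSF10 (0.25), HNRNPDL (0.23) and HNRNPH2 (0.17). None of the 32 members passed the threshold without WT 1 (limma), against 0.151% of all genes. Without WT 2, without WT 3 and without K29Q 2 the number higher was 0, against 3.89%, 4.45% and 6.24% of all genes. It was 1 without K29Q 3 (SRSF11), against 3.54%, and 2 without K29Q 1 (PTBP3 and HNRNPDL), against 4.89%. Without WT 3, SRSF7 was lower at that p (1 member, against 4.01%). The log2 fold change of SRSF11 was 0.35 without WT 2 and 0.21 without WT 3, that of PTBP3 0.23 and 0.20, and that of HNRNPH1 0.15 and 0.19. Without a single K29Q library, SRSF11 lay between 0.27 and 0.42, PTBP3 between 0.24 and 0.32 and HNRNPH1 between 0.19 and 0.23.

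None of the other splicing regulators listed passed the threshold either. The 4 lists (other hnRNPs, SR-related proteins, other splicing regulators, and SR protein kinases with transportins) named 68 genes. The table held 69 gene IDs for them, since MATR3 has 2, and 63 were tested. The test found 0 of the 63 past the threshold (limma, smallest adjusted p = 0.293), against 0.0528% of all genes. At an unadjusted p under 0.05, 14 of the 63 were higher and 3 lower, against 7.65% and 4.89% of all genes. After the GC and length correction 8 of the 63 were higher and 4 lower, against 7.28% and 7.93% of all genes. Among SR-related proteins 4 of 21 were higher and 1 lower at that p, against 7.65% and 4.89% of all genes. After the correction 1 was higher and 2 lower, against 7.28% and 7.93%. LUC7L3, a U1-associated SR-related protein, had 12.1 ± 1.53 and 15.9 ± 0.949 FPKM, a ratio of 1.32 (log2 fold change 0.37, limma, adjusted p = 0.293). SCAF11 had 3.04 ± 0.508 and 4.01 ± 0.326 FPKM. SRRM1, a splicing coactivator, went the other way with 17.3 ± 1.76 and 13.8 ± 0.959 FPKM, a ratio of 0.802 (log2 fold change −0.30, limma, adjusted p = 0.348). After the GC and length correction the log2 fold change of LUC7L3 was 0.21, that of SCAF11 went from 0.31 to 0.15, and that of SRRM1 was −0.30.

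Among other splicing regulators 8 of 25 were higher and 1 lower at an unadjusted p under 0.05, against 7.65% and 4.89% of all genes, and 5 higher and 1 lower after the GC and length correction, against 7.28% and 7.93%. MBNL1 and MBNL2, muscleblind proteins that steer developmental splicing, had 8.55 ± 1.80 and 11.5 ± 0.572 FPKM and 9.76 ± 2.21 and 13.3 ± 0.850 FPKM, and RBM5 had 5.46 ± 0.661 and 6.74 ± 0.299 FPKM (SD, n = 3 each). WT 1 stood above the other WT libraries for all 3, at 10.6, 12.3 and 6.22 FPKM. Their log2 fold changes of 0.40, 0.42 and 0.27 were 0.27, 0.27 and 0.21 after the correction. Among other hnRNPs 1 of 10 gene IDs was higher and 1 lower at that p, against 7.65% and 4.89% of all genes. After the correction 0 were higher and 1 lower, against 7.28% and 7.93%. RALY, a relative of HNRNPC, had 19.3 ± 0.60 and 15.9 ± 1.81 FPKM, with all K29Q libraries below the WT libraries (log2 fold change −0.27, limma, adjusted p = 0.365). PCBP1, which binds runs of C, had 203 ± 18.8 and 180.2 ± 7.09 FPKM, and MATR3 (ENSG00000015479) 4.75 ± 0.484 and 5.98 ± 0.784 FPKM. After the correction RALY was at −0.26, while PCBP1 went from −0.17 to −0.10 and this MATR3 entry from 0.28 to 0.10. The second MATR3 entry had 7.04 ± 2.08 and 7.98 ± 0.598 FPKM, with overlap between the groups. Its log2 fold change was 0.19 (limma, adjusted p = 0.657), and 0.06 after the correction. Reads of MATR3 may be divided between the entries.

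SR proteins enter the nucleus with the transportin TNPO3 and are phosphorylated by SRPK and CLK kinases. The list also holds TNPO1, another transportin. All 7 tested genes of this list lay above 0, as did 6759 of the 13261 genes tested, with a median log2 fold change of 0.07. At an unadjusted p under 0.05 there was 1 of the 7, against 12.5% of all genes. CLK1, the kinase that releases SR proteins from speckles, had 3.88, 3.26 and 3.11 FPKM in WT 1 to 3 and 4.19, 4.87 and 4.87 FPKM in K29Q 1 to 3, without overlap (ratio 1.36, log2 fold change 0.35, limma, adjusted p = 0.309). TNPO1 had 11.4 ± 2.12 and 14 ± 0.936 FPKM and CLK2 9.19 ± 0.106 and 9.80 ± 0.574 FPKM. TNPO3 had 19.4 ± 1.08 and 19.5 ± 1.54 FPKM, with overlap. Its log2 fold change was 0.002, and −0.009 after the GC and length correction. After the GC and length correction 4 of the 7 lay above 0 and 3 below. At that p 2 of the 7 were higher (CLK1 and CLK2) and 0 lower, against 7.28% and 7.93% of all genes. The corrected log2 fold changes were 0.20 for CLK1, 0.09 for TNPO1 and 0.13 for CLK2.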

How the data were processed

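The deposited FPKM values, 1 column per library per the file headers, were made by the authors with HISAT2 2.1.0 and StringTie on build GRCh38, all named per the submitters' processing notes. For StringTie the version, annotation and strand setting were not given in the sources used here. FPKM are not counts, and StringTie divides fragments among overlapping transcripts, so no count test was run. The filter kept 13261 genes, those with FPKM 1 or higher in 3 or more libraries. Their log2(FPKM + 1) in the 6 libraries was fitted with limma 3.58.1 in R 4.3.3 (intensity trend, group as the only term). Adjusted p-values are Benjamini-Hochberg over all genes kept, with a threshold of 0.05. The fit was tested on simulated data, where most changes about as small as those of the members were not called. A member that did not pass the threshold may therefore still differ. Fold changes on the log2(FPKM + 1) scale understate changes of low genes.

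Positions, transcript types, GC content and sequences came from GENCODE 29 (57055 of 60675 gene IDs found). The correction for GC content and length subtracted from each library a spline trend (4 degrees of freedom each) of its deviation from the mean of the 6 libraries. Of the 33 members 18 overlap another annotated gene. No 2 libraries were duplicates, and 0 columns belonged to other samples. The members and lists were chosen with earlier results of these data known. All members are accounted for. Those given by library are the 8 with the smallest p, the 4 with the highest level and the paralog groups, and of each other list the 3 genes with the smallest p are named. SRSF1 is given by library and TNPO3 is named outside that rule, and ratios between paralogs were chosen after their values were seen.

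Alternatives were quantile normalization, median centring, other filters, a pseudocount of 0.1, a term for the header codes, the replicate number as a block, the GC and length correction alone and with either term, and leaving out each library.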

Additional observations from a re-analysis of the deposited data

How the results depend on the processing

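No member passed the adjusted threshold under any of the 18 alternatives run, and the smallest adjusted p was 0.0746 (PTBP3 without WT 1). The number of members higher at an unadjusted p under 0.05, 3 in the reported fit, was 1 with median centring, with the replicate block, and with the GC and length correction, whether alone or joined to a header-code term, a replicate block or a minimum FPKM of 0.5, and it ran from 0 to 6 when single libraries were left out. The number lower, 0 in the reported fit, was 3 with the GC and length correction alone or joined to a minimum FPKM of 0.5, 4 with that correction and a header-code term or a replicate block, and 0 to 1 when single libraries were left out. The number of all genes at that p, in both directions, moved as well. It was 1664 of 13261 in the reported fit, 1685 with median centring and 1321 with the replicate block. With the GC and length correction it was 1994 of 13108, and 2008 or 1997 with a header-code term or a replicate block added. With that correction and a minimum FPKM of 0.5 it was 2202 of 15591. Leaving out single libraries gave 865 to 2716 of 13261. The median log2 fold change of the members, 0.02 in the reported fit, was −0.0498 with the GC and length correction alone or joined to a replicate block, −0.0633 joined to a header-code term and −0.0465 joined to a minimum FPKM of 0.5. It was −0.0118 with median centring, which moved the median of all genes by −0.032. HNRNPU was at 0.02 in the reported fit, with a 95% interval from −0.19 to 0.23 that held 0. It was at −0.17 with the GC and length correction, both alone and joined to a replicate block. Its unadjusted p was 0.19 with the correction alone and 0.032 with the block added (limma, adjusted p = 0.513 and 0.302). The cause was not tested. Of the 32 tested members 15 kept their sign in every alternative and 17 changed it in at least 1, and for all of these except HNRNPU the 95% interval held 0 in both the reported fit and the alternative of opposite sign. The minimum FPKM of 0.5 was chosen after seeing the data.

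Same-numbered libraries were not closer to each other than others: their deviations from the group means correlated at −0.14, 0.179 and −0.165. Libraries of different number correlated at −0.115 to 0.247. These deviations are tied within each group of 3 libraries. Whether same-numbered libraries shared a culture or batch was not tested. With the replicate block 3 genes passed over the whole table, against 7 without it, and over all alternatives the number ran from 1 (GC and length correction with a replicate block) to 83 (that correction alone). The depth of each library is an estimate, so no interval from counts could be given.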
